A study of Drosophila melanogaster with 6 samples.

Results

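The Jonah proteases, the Greek-letter trypsins and the numbered Ser proteases are serine endopeptidases of the fly genome, and their transcripts were followed here in enteroblasts (EBs) that had or lacked a functional Sox21a gene. Members were taken by symbol: Jon or Ser followed by a number, or a Greek letter written out before Try. This gave 31 of the 17321 genes in the table, made up of 16 Jonah genes, 11 trypsin genes and 4 Ser genes, each read from its transcript with the highest mean. EBs, the undifferentiated daughters of intestinal stem cells in the adult Drosophila midgut, were profiled by RNA-seq in 3 control and 3 Sox21a libraries, each from its own pool of flies.

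Both groups were female flies kept at 25 °C to an age of 16 to 18 days. All carried Su(H)GBE-Gal4 and UAS-CD8::GFP, in which a Notch-responsive enhancer drives a membrane GFP in EBs, and GFP-positive cells were taken by flow sorting after the gut had been dissociated with elastase. Sox21a flies were homozygous for a small deletion in the DNA-binding HMG domain that shifts the reading frame. Control flies are Sox21a/+ in the study's methods and wild-type in the sample labels, and the labels name the anterior part of the midgut. The Sox21a transcript was at 14123, 17337 and 16781 normalized reads in control libraries 1, 2 and 3 and at 14474, 14697 and 19025 in the Sox21a libraries. A small deletion need not lower a transcript, so this level does not check the genotype labels.

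Jonah and trypsin proteins are secreted into the gut lumen as inactive precursors, and once activated they cut dietary protein into peptides. Trypsins cut after lysine or arginine, while many Jonah proteins resemble chymotrypsin or elastase. In the midgut these enzymes are mainly products of enterocytes, the absorptive cells into which most EBs develop, and many of the genes lie in tandem arrays that arose by duplication.

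Of the 31 protease genes, 21 were abundant enough to test, with a mean of at least 10 normalized reads over the 6 libraries. In Sox21a EBs 13 of the 21 fell and 0 rose, with an adjusted p under 0.05 as the threshold (limma, Benjamini-Hochberg over 11400 transcripts). Among all tested transcripts 11.3% were lower and 23.6% were higher by the same rule. The remaining 8 tested genes did not pass, 6 with a log2 fold change below 0 and 2 with one above 0. At an unadjusted p under 0.05, 13 members were lower and 1, Ser7, was higher. The median log2 fold change was -1.68 over the 21 tested members and 0.21 over all tested transcripts. All log2 fold changes are on the log2(value + 1) scale, on which the change of low transcripts is understated. Dividing the values by median-of-ratios factors moved these medians to -1.87 and 0.02, and 13 members were lower and 0 higher on that scale, where 16.8% of all tested transcripts were lower and 16.6% higher.

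In 13 of the 21 tested members the highest Sox21a library lay below the lowest control library, beside 16.6% of all tested transcripts. These were the same 13 genes that were called, so this adds no separate support to the calls. The fall was at least 2-fold on the log2 scale in 12 of the 13 and at least 4-fold in 10. Both group means were at least 100 normalized reads in 6 of the 13. In a bulk sample, fewer cells of a type and less RNA per cell cannot be told apart.

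**Figure D1:**
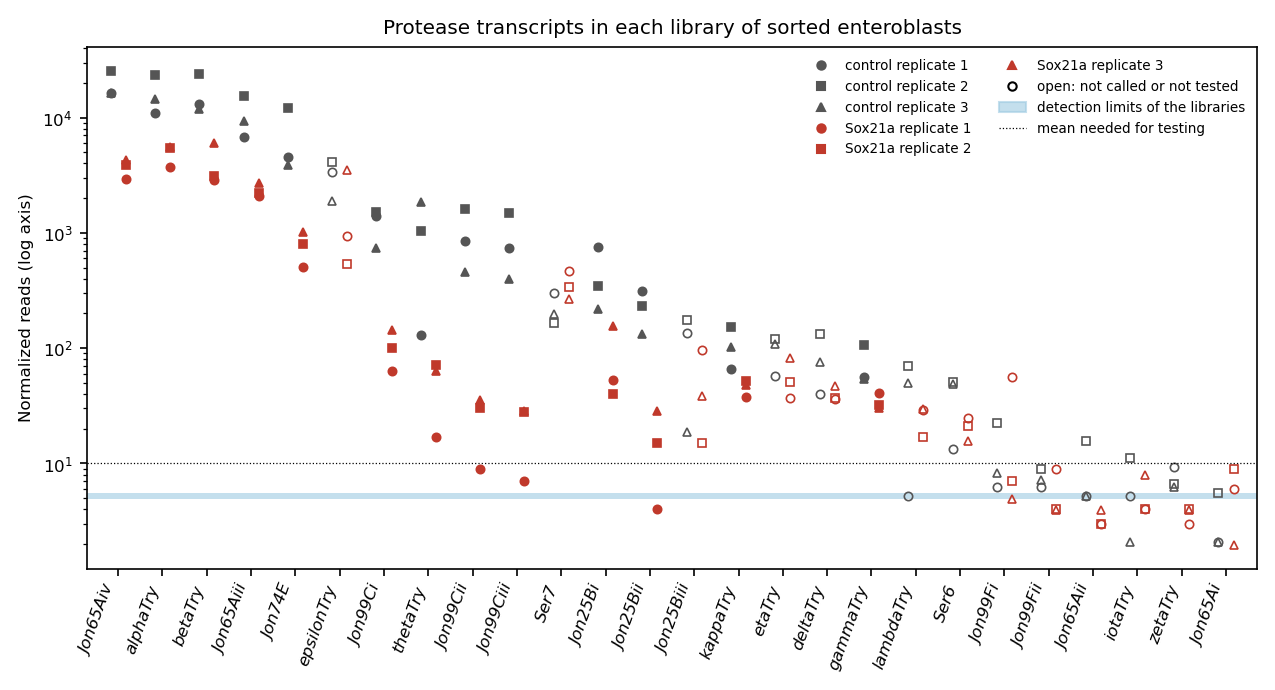
Normalized reads (log axis) of the 26 protease genes detected in at least 1 library, in order of their mean, with control libraries in grey and Sox21a libraries in red. Filled symbols mark the 13 genes lower in Sox21a EBs, in which every red symbol lies below every grey one, the band marks the detection limits of 4.92 to 5.58, and the dotted line marks the mean of 10 needed for testing.

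Among the Jonah genes, 8 of the 10 tested fell, with a median log2 fold change of -2.73 over the 10. The most abundant was Jon65Aiv, with 16491, 25486 and 16334 normalized reads in control libraries 1, 2 and 3 and 2937, 3863 and 4297 in Sox21a libraries 1, 2 and 3. Control 2 was the highest library, and the groups were far apart. Its mean fell 5.25-fold, from 19437 ± 5239 to 3699 ± 694.5 (SD, n = 3 each), with a log2 fold change of -2.38 (SE 0.24, limma adjusted p = 0.00048).

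Its neighbour Jon65Aiii was at 6719, 15475 and 9357 in the control libraries and at 2071, 2215 and 2730 in the Sox21a libraries. Control 2 again stood highest, while the Sox21a libraries were close to each other. Its log2 fold change was -2.09 (SE 0.31, limma adjusted p = 0.0024). Per kilobase of exon, a scale on which genes can be compared, Jon65Aiv ranked 142 of 16253 genes by its control mean and 630 by its Sox21a mean. For Jon65Aiii the ranks were 214 and 947.

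Jon74E lies outside the arrays of these genes, on chromosome 3L from 17548077 to 17549127 in the release 6 genome. It was at 4552, 12147 and 3865 normalized reads in the control libraries and at 507, 796 and 1023 in the Sox21a libraries. The control libraries spread widely, with control 2 the highest, yet the lowest of them was above the highest Sox21a library. The mean fell 8.84-fold and the log2 fold change was -3.00 (SE 0.46, limma adjusted p = 0.0030), and the rank per kilobase went from 300 to 2336.

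The lowest log2 fold changes of the tested members were those of Jon99Ciii and Jon99Cii, which with Jon99Ci form an array that fills 4.0 kb of chromosome 3R from 29922216 to 29926189. Jon99Ciii was at 739.6, 1497 and 395.1 in the control libraries and at 7, 28 and 28.5 in the Sox21a libraries. Jon99Cii was at 854.4, 1615 and 457.2 in the control libraries and at 9, 30 and 35.4 in the Sox21a libraries. Both genes were thus well above the mean needed for testing in every control library, while Sox21a library 1, the lowest, was under it. The means fell 41.4-fold for Jon99Ciii and 39.3-fold for Jon99Cii. The log2 fold changes were -5.32 (SE 0.64, limma adjusted p = 0.0010) and -5.26 (SE 0.60, limma adjusted p = 0.00082).

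The ratio of Jon99Cii to Jon99Ciii stayed between 1.07 and 1.29 in the 6 libraries. The methods do not say where reads matching more than 1 copy were assigned, which leaves the division of reads between close copies of the Jonah and trypsin arrays uncertain. Jon99Ci, the third gene of the array, was at 1393, 1524 and 740.6 in the control libraries and at 64, 100 and 144.6 in the Sox21a libraries. Its groups were also clear of each other. Per kilobase of exon its Sox21a mean was 113.4 normalized reads, against 28.8 for Jon99Cii and 25.3 for Jon99Ciii. Its mean fell 11.9-fold, with a log2 fold change of -3.56 (SE 0.37, limma adjusted p = 0.00057).

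In the array Jon25Bi, Jon25Bii and Jon25Biii, 5.2 kb of chromosome 2L from 4949941 to 4955144, the first and second genes fell. Jon25Bii was at 310.3, 232.2 and 131.4 in the control libraries and at 4, 15 and 28.5 in the Sox21a libraries. Sox21a library 1 was under the detection limit of 5 in that library, and the control libraries were all above 100. A log2 fold change of -4.0 (SE 0.64, limma adjusted p = 0.0035) resulted. The detection limit was set at 3 counts above the smallest value that the table holds for a library, and it covers counting error only.

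Jon25Bi was at 746.8, 343.9 and 220.3 in the control libraries and at 53, 40 and 156.4 in the Sox21a libraries. Here control 1 and not control 2 was the highest library, and Sox21a library 3 came nearest to the controls. On the log2 scale it changed by -2.45 (SE 0.60, limma adjusted p = 0.019). The call was lost without Sox21a library 1 (limma adjusted p = 0.064) or Sox21a library 2 (limma adjusted p = 0.054).

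Jon25Biii was not called, at 136.5, 176.4 and 18.6 in the control libraries and at 97, 15 and 38.4 in the Sox21a libraries. Its groups overlapped because control 3 was lower than both Sox21a libraries 1 and 3. Its log2 fold change was -0.99 with a 95% confidence interval from -3.21 to 1.24 (limma adjusted p = 0.44), an interval that takes in the value of Jon25Bi.

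The other tested Jonah gene, Jon99Fi, was low, at 6.21, 22.3 and 8.28 in the control libraries and at 56, 7 and 4.92 in the Sox21a libraries. A single library, Sox21a 1, carried most of its reads. The log2 fold change of 0.26 was not called (limma adjusted p = 0.83), and it was -0.75 without Sox21a library 1 and -0.08 without control 1.

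The trypsin genes form a single cluster on chromosome 2R, 20.7 kb from 11336840 to 11357537. All 11 were above the detection limit in at least 1 library, 9 were tested and 5 of the 9 fell, with a median log2 fold change of -1.14 over the 9. Per kilobase of exon betaTry and alphaTry led the family in both groups.

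In alphaTry the control libraries were at 10848, 23588 and 14545 and the Sox21a libraries at 3759, 5493 and 5506. Control 2 was the highest, and no Sox21a library came near the lowest control. The mean fell 3.32-fold, from 16327 ± 6554 to 4919 ± 1005 (SD, n = 3 each), with a log2 fold change of -1.68 (SE 0.31, limma adjusted p = 0.0064).

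In betaTry the control libraries were at 13115, 23928 and 11950 and the Sox21a libraries at 2893, 3124 and 5976. Sox21a library 3 was about as high above the other Sox21a libraries as control 2 was above the other controls. The mean fell 4.08-fold and the log2 fold change was -2.04 (SE 0.37, limma adjusted p = 0.0057). By control mean per kilobase betaTry ranked 149 and alphaTry 154, next to Jon65Aiv, and by Sox21a mean they ranked 531 and 462.

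The least even of the called genes was thetaTry, at 130.3, 1028 and 1841 in the control libraries and at 17, 72 and 62.9 in the Sox21a libraries. Control 1 was far under the other controls and nearest to the Sox21a libraries. On the log2 scale it changed by -3.84 with a wide error (SE 0.99, limma adjusted p = 0.024). The call was lost without control 2 (limma adjusted p = 0.076), control 3 (0.063), Sox21a library 1 (0.074) or Sox21a library 3 (0.054), while blocking on the replicate number gave a limma adjusted p of 0.0044.

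Smaller falls were seen in kappaTry and gammaTry. kappaTry was at 66.2, 154.1 and 102.4 in the control libraries and at 38, 52 and 48.2 in the Sox21a libraries, and its log2 fold change was -1.14 (SE 0.31, limma adjusted p = 0.028). The gap between the lowest control and the highest Sox21a library was narrow. Its call held without control 1 and was lost without control 2 (limma adjusted p = 0.062), control 3 (0.070), Sox21a library 1 (0.091), Sox21a library 2 (0.055) or Sox21a library 3 (0.068).

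gammaTry was at 55.9, 107.2 and 53.8 in the control libraries and at 41, 32 and 30.5 in the Sox21a libraries. Only control 2 stood well above the other libraries, although the groups did not overlap. With a log2 fold change of -0.98 it passed the test (SE 0.29, limma adjusted p = 0.036). The call was lost with the replicate number as a block (limma adjusted p = 0.051), and without control 2 (0.058), Sox21a library 1 (0.059), Sox21a library 2 (0.099) or Sox21a library 3 (0.10).

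The third most abundant trypsin, epsilonTry, was not called. It was at 3377, 4097 and 1873 in the control libraries and at 945, 536 and 3492 in the Sox21a libraries, so that Sox21a library 3 was higher than controls 1 and 3. Its log2 fold change was -1.29 with a 95% confidence interval from -2.84 to 0.26 (limma adjusted p = 0.17). Without Sox21a library 3 it was -2.05, with a limma adjusted p of 0.017.

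etaTry was at 57.9, 119.5 and 108.6 in the control libraries and at 37, 51 and 82.6 in the Sox21a libraries. Control 1 was lower than Sox21a library 3, and the log2 fold change of -0.74 was not called (limma adjusted p = 0.15). It was called with the replicate number as a block (limma adjusted p = 0.046) and without control 1 (0.042).

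deltaTry was at 40.3, 134 and 76.5 in the control libraries and at 36, 37 and 47.2 in the Sox21a libraries. Again control 1 alone reached into the Sox21a range, and the log2 fold change of -0.89 was not called (limma adjusted p = 0.12), whereas without control 1 it was -1.33 (limma adjusted p = 0.011). The gene overlaps CG13202 on the other strand, and the methods do not say if reads were counted by strand.

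The last tested trypsin, lambdaTry, was at its detection limit of 5.17 in control 1, at 70.3 and 49.6 in controls 2 and 3, and at 29, 17 and 29.5 in the Sox21a libraries. Its log2 fold change of -0.15 (limma adjusted p = 0.91) followed that library: without control 1 it was -1.24 (limma adjusted p = 0.018), and without control 2, control 3 or Sox21a library 2 it was 0.53, 0.28 or 0.10. zetaTry and iotaTry had means under 10 and were not tested. zetaTry was at 9.31, 6.70 and 6.21 in the control libraries and at 3, 4 and 3.94 in the Sox21a libraries, all of the latter under the detection limit. iotaTry was between 2.07 and 11.2 in the control libraries and between 4 and 7.87 in the Sox21a libraries.

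Neither of the tested Ser genes was called. Ser7 was at 301, 165.2 and 199.6 in the control libraries and at 465, 341 and 264.6 in the Sox21a libraries. Control 1 lay above Sox21a library 3, and the other controls lay below all Sox21a libraries. The log2 fold change was 0.69 (SE 0.29), with a limma adjusted p of 0.10, which became 0.038 with the replicate number as a block and 0.031 without control 1. Ser6 was at 13.4, 51.4 and 48.6 in the control libraries and at 25, 21 and 15.7 in the Sox21a libraries. It changed by -0.66 on the log2 scale (limma adjusted p = 0.33), and -1.26 without control 1 (limma adjusted p = 0.0060). Ser8 and Ser12 were at or under the detection limit in all 6 libraries.

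In all, 5 of the 31 genes were undetected throughout: Jon44E, Jon66Ci, Jon66Cii, Ser8 and Ser12. Of these, Jon44E overlaps CG8586 and Ser8 overlaps ATP8A, each on the other strand. Another 5 were detected but had means under 10. Jon65Aii was at 5.17, 15.6 and 5.17 in the control libraries, with controls 1 and 3 at the limit, and at 3, 3 and 3.94, all under the limit, in the Sox21a libraries. Jon65Ai was at 2.07, 5.58 and 2.07 in the control libraries, none above the limit, and at 6, 9 and 1.97 in the Sox21a libraries. Jon99Fii ranged from 6.21 to 8.93 in the control libraries and from 3.94 to 9 in the Sox21a libraries.

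Jon65Aiv and Jon65Aiii, which fell, share 15.3 kb of chromosome 3L (from 6039155 to 6054443) with Jon65Aii and Jon65Ai, which were close to the detection limit. All 3 genes of the Jon99C array fell, whereas its relatives Jon99Fi and Jon99Fii, 2.9 kb of the same arm from 30487016 to 30489895, held few reads in either group. The pair Jon66Ci and Jon66Cii, 2.1 kb of chromosome 3L from 8391540 to 8393649, was undetected. Within the trypsin cluster alphaTry, epsilonTry and betaTry, its most abundant genes per kilobase, are adjacent, and thetaTry and the much lower gammaTry flank them.

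**Figure D2:**
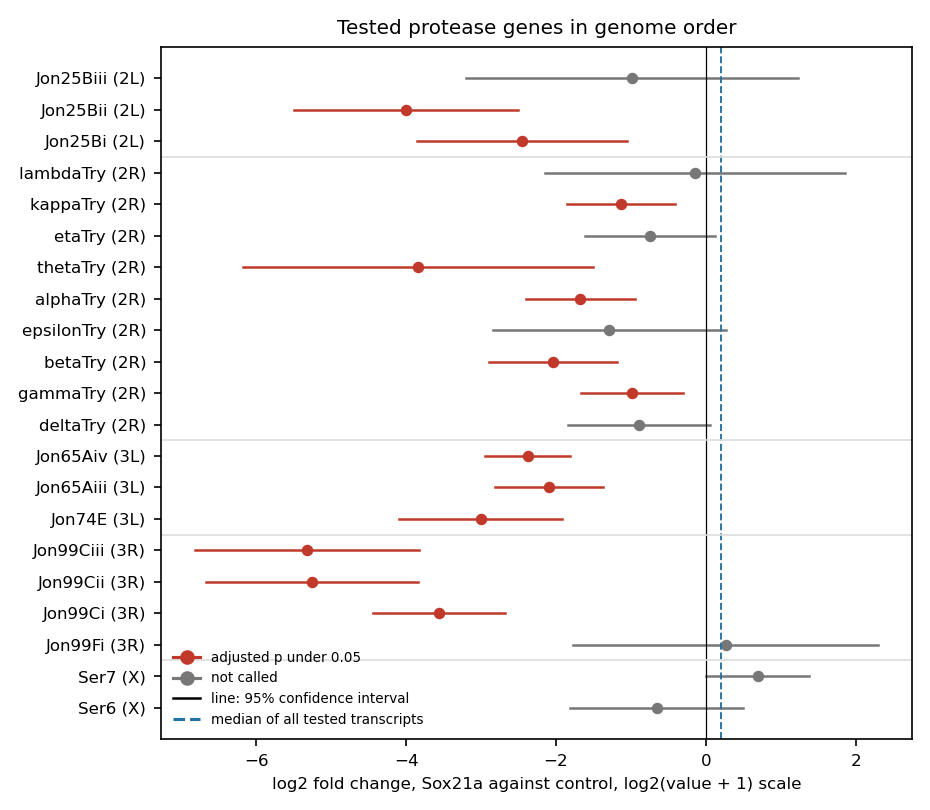
Log2 fold change of Sox21a against control EBs, on the log2(value + 1) scale, for the 21 tested protease genes in genome order with their chromosome arm, with points in red where the adjusted p was under 0.05 and lines for the 95% confidence interval. The dashed line is the median of all tested transcripts, 0.21, and Jon99Ciii and Jon99Cii lie farthest to the left, at -5.32 and -5.26.

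The summed normalized reads of the 31 genes were 59999, 112024 and 62411 in control libraries 1, 2 and 3 and 14125, 16919 and 24072 in Sox21a libraries 1, 2 and 3. Control 2 held nearly as much as the other controls together, and its share of the reads of all genes was also the highest. That share was 0.176%, 0.302% and 0.161% in the control libraries and 0.0410%, 0.0462% and 0.0600% in the Sox21a libraries. The mean sum was 4.25-fold lower in Sox21a EBs, going from 78145 ± 29365 to 18372 ± 5130 (SD, n = 3 each).

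By family, the mean sum was 5.69-fold lower for the Jonah genes, 40692 ± 15474 against 7154 ± 1337 (SD, n = 3 each). For the trypsins it was 3.43-fold lower, 37188 ± 13980 against 10837 ± 3937 (SD, n = 3 each). The Ser sum was 264 ± 49.8 against 381.4 ± 105.7 (SD, n = 3 each), with overlapping libraries. Jon65Aiv, Jon65Aiii, alphaTry and betaTry made up between 76.9% and 86.9% of the total in every library, so the sums describe mainly these 4 genes.

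**Figure D3:**
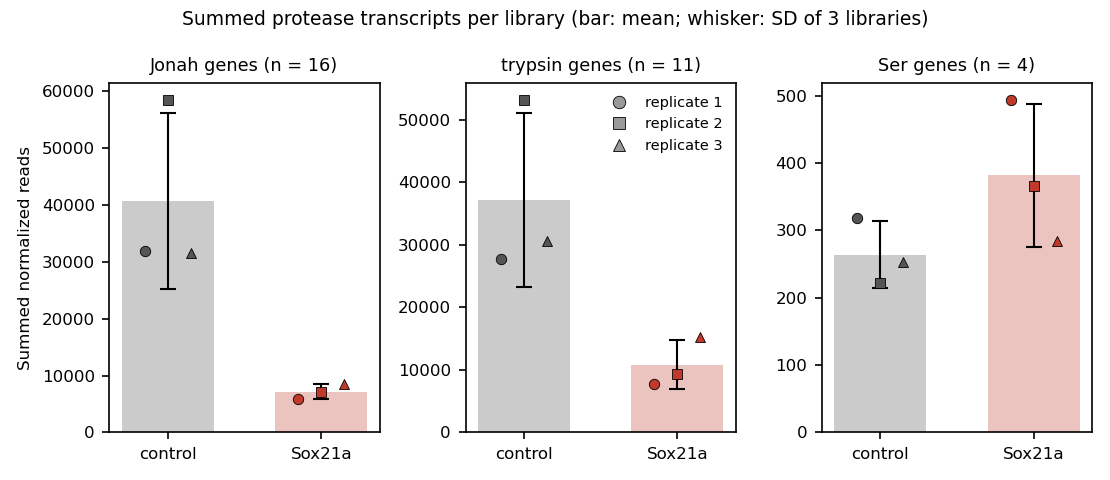
Summed normalized reads per library for the 16 Jonah, 11 trypsin and 4 Ser genes, each panel with its own linear axis from 0. Bars are means, whiskers are SD of 3 libraries and symbols are single libraries, and in the Jonah and trypsin panels all Sox21a libraries lie below all control libraries.

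The same libraries stood high or low in most of the called genes. Control 2 was the highest control library in 10 of the 13, control 1 in 2 (Jon25Bi and Jon25Bii) and control 3 in 1 (thetaTry). Sox21a library 1 was the lowest Sox21a library in 11 of the 13, and Sox21a library 3 was the highest in 10. Without control 2, 10 members were lower by the same test, and over the fits that left out each library in turn the count ran from 9 to 17. The counts of 9 and 17 came without Sox21a library 1 and without control 1. All 13 log2 fold changes stayed below 0 in these 6 fits, and 9 of the 13 genes were called in each of them.

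Other digestive enzymes were counted by the same test. The list held 33 genes for amylases, maltases, lysozymes, lysosomal mannosidases, aspartic proteases, sterol and lipid uptake, and serine proteases outside the symbol rule. Of its 25 tested genes, 7 fell and 5 rose, beside 11.3% lower and 23.6% higher among all tested transcripts. With the replicate number as a block 5 were lower and 7 higher. The median log2 fold change was 0.24, against -1.68 for the proteases and 0.21 for all tested transcripts. The count of falls was 4 without control 2 or without Sox21a library 3. The count of rises was 1 after rescaling, 1 without control 2 and 2 without control 1, control 3, Sox21a library 2 or Sox21a library 3.

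The serine protease yip7 lies near the Jon65A array, on chromosome 3L from 6035216 to 6036175. It was at 12672, 20697 and 13509 in the control libraries and at 4505, 3479 and 5834 in the Sox21a libraries. All controls were well above every Sox21a library, and the log2 fold change was -1.76 (SE 0.27, limma adjusted p = 0.0028).

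Bace, an aspartic protease of the gut, was at 12308, 17621 and 19665 in the control libraries and at 3019, 5501 and 6674 in the Sox21a libraries. The groups did not overlap, and its log2 fold change was -1.76 (SE 0.33, limma adjusted p = 0.0066). The starch-cutting amylase Amy-d was at 255.5, 820.6 and 278.2 in the control libraries and at 135, 18 and 59.0 in the Sox21a libraries. Control 2 again stood highest. The log2 fold change of Amy-d was -2.86 (SE 0.75, limma adjusted p = 0.024), a call lost with the replicate number as a block (0.064), without control 2 (0.073) and without Sox21a library 3 (0.065).

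Of the genes that rose, tobi, an alpha-glucosidase, had a log2 fold change of 1.33 (SE 0.38, limma adjusted p = 0.033). The maltase Mal-A6 had one of 1.01 (SE 0.32, limma adjusted p = 0.043), and cathD, the lysosomal aspartic protease cathepsin D, one of 0.56 (SE 0.14, limma adjusted p = 0.019). With the values divided by median-of-ratios factors, the log2 fold changes of tobi, Mal-A6 and cathD were 1.14, 0.82 and 0.37, and the calls were lost (limma adjusted p = 0.058, 0.081 and 0.071). With the block as well Mal-A6 was called (0.035). The call of tobi was lost without any library other than Sox21a 2 (limma adjusted p from 0.050 to 0.075), and that of Mal-A6 without any library other than Sox21a 1 (0.061 to 0.099). That of cathD was lost without control 2 (0.059), Sox21a library 1 (0.064) or Sox21a library 2 (0.093). Mal-A1, the maltase with the highest mean in normalized reads, was not called, with a log2 fold change of 0.08 (limma adjusted p = 0.87). The lysozymes LysX and LysC also rose, with log2 fold changes of 1.34 (SE 0.17, limma adjusted p = 0.0013) and 2.14 (SE 0.68, limma adjusted p = 0.046). LysX was called in all 6 fits that left out a library and after rescaling. LysC was called in 1 of them, without Sox21a library 1, and not in the others (limma adjusted p from 0.052 to 0.11) or after rescaling (0.072), and it has close copies. Of the 6 tested lysozymes 2 rose and 1 fell, and of the 6 tested maltases 1 rose and 1 fell. The lysozyme that fell was LysP, with a log2 fold change of -2.93 (SE 0.57, limma adjusted p = 0.0080). The maltase that fell was Mal-B1, with one of -3.18 (SE 0.59, limma adjusted p = 0.0067). The alternative fits of LysP and Mal-B1 are not given here. Mal-A1, LysX, LysC, LysP and Mal-B1 were picked after their values were seen.

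Serpins, many of which block serine proteases by forming a covalent trap, were counted as the inhibitors beside the enzymes. Of 27 serpin genes 12 were undetected in all libraries and 9 were tested, of which 4 rose and 0 fell, with 0 lower also at an unadjusted p under 0.05, beside 23.6% higher and 11.3% lower among all tested transcripts. The 9 had a median log2 fold change of 0.31. On the rescaled values 2 rose and 1 fell, where 16.6% of all tested transcripts were higher and 16.8% lower. The count of rises was 2 without control 3 or any Sox21a library. Spn42Da, an inhibitor of furin-type proteases, was at 4007, 5717 and 5328 in the control libraries and at 7867, 8385 and 7083 in the Sox21a libraries. The groups did not overlap, and on the log2 scale it changed by 0.65 (SE 0.18, limma adjusted p = 0.033). That call was lost after rescaling (limma adjusted p = 0.14), and without control 3 (0.062), Sox21a library 1 (0.096), Sox21a library 2 (0.12) or Sox21a library 3 (0.057).

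The other serpins that rose were named after their values were seen. Spn77Bc was at 23.8, 19.0 and 14.5 in the control libraries and at 164, 140 and 184.9 in the Sox21a libraries. The log2 fold change of 3.05 (SE 0.22, limma adjusted p = 0.00012) was the highest among the tested serpins. Spn88Ea had a log2 fold change of 1.42 (SE 0.23, limma adjusted p = 0.0038). Spn42De had one of 0.65 (SE 0.20, limma adjusted p = 0.043), a call lost after rescaling (0.093), with the replicate number as a block (0.059) and without any library other than control 1 (0.072 to 0.13).

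**Figure D4:**
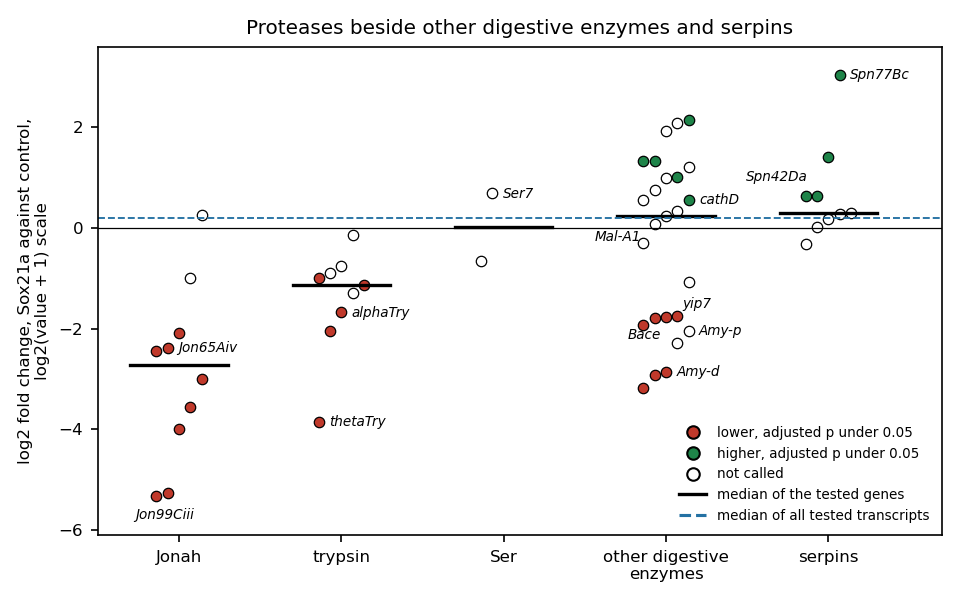
Log2 fold change of Sox21a against control EBs, on the log2(value + 1) scale, for the tested genes of the 3 protease families, the other digestive enzymes and the serpins, with genes lower in red, genes higher in green and genes not called open. Thick bars are group medians (-2.73 for Jonah, -1.14 for trypsins, 0.02 for Ser, 0.24 for other digestive enzymes and 0.31 for serpins) and the dashed line is the median of all tested transcripts.

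Markers of the cell types that a GFP gate could hold were read beside these results. Of 5 enterocyte markers, all tested, 2 fell. They were nub, which encodes the transcription factor Pdm1 (log2 fold change -1.70, limma adjusted p = 0.0050), and the brush border myosin Myo31DF. Myo31DF had a log2 fold change of -0.69 (limma adjusted p = 0.032), a call lost with the replicate number as a block (0.058) and without any library other than control 1 (0.064 to 0.095). The other 3 were not called: mex1 at 0.05, Myo61F at 0.30 and Vha100-4 at -0.79. The summed enterocyte markers ran from 19040 to 30367 normalized reads in the control libraries and from 17641 to 18511 in the Sox21a libraries. Myo31DF made up 53.6% to 60.1% of the sum in the control libraries, and without it the groups overlapped, at 7746 to 14102 and 8812 to 10021.

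Of 6 progenitor markers, which include Sox21a itself, 5 were tested and 1 fell: the Notch target E(spl)mbeta-HLH, with a log2 fold change of -0.81 (SE 0.16, limma adjusted p = 0.0081). The sum of these 6 overlapped, at 32274 to 38208 in the control libraries and 25429 to 35285 in the Sox21a libraries. It leaves out 1 gene of the list, which is not reported here, and holds the Sox21a transcript as a large part. This sum therefore does not describe the whole progenitor list. Among 9 enteroendocrine markers, the peptide gene CCHa2 rose (log2 fold change 3.57, limma adjusted p = 0.0042). The peptide gene Tk also rose, by 1.78 (limma adjusted p = 0.046), a call lost after rescaling (0.091) and without any library other than Sox21a 3 (0.060 to 0.13). The transcription factor gene pros fell, with a log2 fold change of -1.43 (limma adjusted p = 0.019), a call lost without control 2 (0.063), Sox21a library 2 (0.060) or Sox21a library 3 (0.062). The enteroendocrine sum ran from 783 to 1225 in the control libraries and from 2261 to 5953 in the Sox21a libraries. CCHa2 alone was at 242, 44.7 and 117.9 in the control libraries and at 2040, 1230 and 886.3 in the Sox21a libraries. This sum therefore does not describe the list as a whole, of which 7 genes were tested, 2 rose and 1 fell. The sum of 6 visceral muscle markers, 2 of them tested, ran from 38.3 to 64.8 in the control libraries and from 108 to 135.7 in the Sox21a libraries. Of these 1, sls, picked after its values were seen, rose (log2 fold change 2.15, limma adjusted p = 0.0030). It was at 8.28, 21.2 and 15.5 in the control libraries and at 83, 60 and 57.05 in the Sox21a libraries. Much of the difference in the muscle sum thus came from this gene. The 5 haemocyte markers summed to between 10.3 and 36.8 in the control libraries and between 14 and 17 in the Sox21a libraries, and 1 of them, He, was under the detection limit in all 6. The 4 fat body and ovary markers summed to between 17.9 and 23.8 and between 14 and 23, with Yp1 and Yp2 at or under the limit in all 6. The part of these other cells in the protease results was not tested.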

How the data were processed

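EBs sorted from control flies (3 libraries) were compared with EBs from Sox21a flies (3 libraries) by RNA-seq, after linear amplification of mRNA, which can favour some transcripts. Paired reads had been aligned by the authors with Bowtie2 (release 6 genome), counted over exons and divided by size factors. The deposited values are therefore a signal, normalized reads per transcript. Each is a whole multiple of a step constant within its library, and the smallest is 2 steps. Whether 2 is an offset or a floor is not given in the sources used here. Summed in steps, the libraries held from 37286049 to 45955837. A value of 5 steps or less was taken as undetected. A further deposited table holds the authors' log2 fold changes and p-values and was not used. No library's column was left out (0 columns).

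Values were tested two-sided as log2(value + 1) in limma 3.58.1 under R 4.3.3 (lmFit, then eBayes with no trend). The 11400 transcripts whose mean reached 10 entered, and the Benjamini-Hochberg adjustment ran over all of them. With 3 libraries a group, the smallest exact permutation p is 0.1. p-values measure the spread between these pools. Deviations from the group means were correlated between libraries of the same replicate number (0.171, 0.129 and 0.124, against -0.184 to 0.051 between different numbers). Deviations within a group cancel by construction, so these correlations are not independent of each other. The main fit held no block. A fit with the number as a block, which takes the numbers in the labels to pair the libraries, was made as an alternative. Further alternatives were pseudocounts of 0.1 and 10, no filter or a mean of 100, rescaling by median-of-ratios factors with and without the block, 1 transcript per gene, a limma trend, subtraction of the smallest value, an adjusted p under 0.01, a 2-fold minimum and each library left out.

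Members, lists and tests were chosen with earlier results of these data known. All members are accounted for. Values in each library are given for called members, for the 5 uncalled members with the highest mean and for members at the limit in 1 group only, and of the other lists the 3 called genes with the largest rise and the 3 with the largest fall whose mean reaches 100 are named, with exceptions said. Called markers with a mean of 100 or more are named too, and 1 gene of the progenitor list is not reported here. Values in each library are given for further members where a single library decided the result. Positions and exon lengths came from the Ensembl annotation of BDGP6, the release 6 assembly, with positions for 17018 of 17321 genes. Genes were ranked per kilobase where the exon length was at least 200 bases. Scripts were tested on simulated data. They used pandas 2.3.3 and numpy 2.4.6 under Python 3.11.15, and matplotlib 3.10.9 for plots.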

Additional observations from a re-analysis of the deposited data

How the results depend on the processing

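The count of lower proteases, 13, lay between 9 and 14 under the settings that kept all libraries, and between 9 and 17 when each library was left out. That of higher proteases was 1 with the replicate number as a block (Ser7) and 0 to 1 with each library left out, against 0. In the block fit 13 proteases were lower, with etaTry in place of gammaTry, and the block changed no other call among the proteases. In the blocked fit after rescaling 14 were lower. For other digestive enzymes, the 5 higher genes became 3 with no filter, 3 at a mean of 100, 3 after subtracting the smallest value, 1 after rescaling and 1 at an adjusted p under 0.01, and 1 to 5 with each library left out, against 7 with the block, 7 with a limma trend and 6 with a pseudocount of 10. The 7 lower became 4 with no filter, 4 at a mean of 100 and 4 at an adjusted p under 0.01, and 4 to 8 with each library left out, against 5 with the block and 8 with a limma trend. The 4 higher serpins became 1 at a mean of 100 and 2 after rescaling, after rescaling with the block, at an adjusted p under 0.01 or at a 2-fold minimum, and 2 to 4 with each library left out. After rescaling 1 serpin was lower, against 0. Fewer genes were tested at a mean of 100 and more with no filter. For the others the cause was not tested. Log2 fold changes turned in lambdaTry (-1.24 to 0.53 with each library left out), Jon99Fi (-0.75 to 0.88) and mex1 (-0.15 after rescaling, with or without the block, and -0.12 to 0.24). Of the values for single genes under the alternatives, 664 kept their direction and side of the threshold, 114 lost the call, 12 gained it and 8 turned. Tests on counts were not run because it is not known if the smallest value, 2 steps, is an offset or a floor. Read counts could therefore not be recovered with certainty. Detection limits of 4.92 to 5.58 leave 5 proteases unmeasured.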

Other observations

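Genes beside the protease arrays were read after the data were seen. Inside the trypsin cluster, between gammaTry and deltaTry, lie CG30025 (chromosome 2R from 11353564 to 11354373) and CG30031 (11350811 to 11351621), which the symbol rule does not take. CG30025 was at 71.4, 122.8 and 70.3 normalized reads in the control libraries and at 36, 24 and 31.5 in the Sox21a libraries, with a log2 fold change of -1.47 (SE 0.27, limma adjusted p = 0.0060). CG30031 was at 52.8, 129.5 and 78.6 in the control libraries and at 36, 26 and 39.4 in the Sox21a libraries. Control 2 was the highest library in both, as in gammaTry and deltaTry. The log2 fold change of CG30031 was -1.26 (SE 0.33, limma adjusted p = 0.025), a call lost with the replicate number as a block (0.053) and without any library other than control 1 (0.050 to 0.079).

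Genes outside the arrays, within 6000 bases of them, did not all move with the proteases. Beside the trypsin cluster CG12384 had a log2 fold change of -0.48 (limma adjusted p = 0.053), ix one of -0.01 (0.98), and san, an acetyltransferase, rose by 0.75 (0.020). The call of san was lost without control 2 (0.066), Sox21a library 2 (0.052) or Sox21a library 3 (0.058). Beside the Jon25B array betaggt-I, Marcal1 and mRpL24 rose, with log2 fold changes of 0.48, 1.01 and 0.83 (limma adjusted p = 0.039, 0.015 and 0.012), and jet was at 0.13 (0.61). The call of betaggt-I was lost after rescaling (0.11), with the replicate number as a block (0.053) and without any library other than control 1 (0.093 to 0.14). Beside the Jon65A array yip7 fell, as given above. So did CG6462, which lies between yip7 and the array, at 13.4 to 15.6 in the control libraries and 6 to 9.84 in the Sox21a libraries. Its log2 fold change was -0.78 (limma adjusted p = 0.021), a call lost without control 2 (0.071), Sox21a library 1 (0.070) or Sox21a library 2 (0.067) and with a limma trend (0.15). The gene tan, on the other side, was at -0.01 (0.98). CG10477, beside the same array, was at 15.5, 423.1 and 465.5 in the control libraries and at 40, 34 and 32.5 in the Sox21a libraries, and its log2 fold change of -2.03 was not called (limma adjusted p = 0.22). As in thetaTry, control 1 was far below controls 2 and 3.

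The amylase Amy-p moved beside Amy-d without passing the test. It was at 504.8, 1527 and 561.7 in the control libraries and at 334, 67 and 275.4 in the Sox21a libraries, with a log2 fold change of -2.04 (limma adjusted p = 0.052, and 0.014 to 0.15 over the alternatives). Both amylase genes were lowest in Sox21a library 2, whereas 11 of the 13 called proteases were lowest in Sox21a library 1.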
